A study of Mus musculus with 24 samples.

Results

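Of 49364 merged open chromatin regions on the 19 mouse autosomes, 3012 held a peak in every C57BL/6J liver list and in no A/J liver list. They are called C57BL/6J-only regions here. They were chosen by the presence of FAIRE-seq peaks: the peaks of 6 deposited lists, 1 per strain and diet, were merged where they shared at least 1 bp, and regions with a peak in all 3 C57BL/6J lists and none of the 3 A/J lists were kept. This is 6.10% of all merged regions, and the values that chose them are a description with no test. The mice were of the inbred strains C57BL/6J and A/J, and liver was taken on HF (high fat diet for 16 weeks), on Reversal (high fat diet for 8 weeks, then control diet for 8 weeks) or on Control (control diet for 16 weeks). The diet tag of the Reversal samples reads 16 weeks for the control diet, and the 8 weeks of the treatment protocol were followed. Each strain and diet had 2 FAIRE libraries, 12 in all, and the labels do not state whether those 2 came from different mice. Sex and age are not given in the labels, and the diet is not described further.

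FAIRE recovers DNA that crosslinks poorly to protein and so is depleted of nucleosomes. Active promoters and enhancers are recovered in this way, and hepatocytes are the main cell type of the liver. C57BL/6J is the strain of the mouse reference genome and is known to gain weight readily on high fat diet, whereas A/J is known as more resistant. Liver is bulk tissue, so that a change in the share of a cell type and a change within its cells cannot be told apart. The lists hold no values per gene, so that the labelled tissue was not checked against marker genes in these libraries.

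Each peak carries a signal that the authors deposited without naming its scale. Signals were therefore turned into ranks within their list, in percent of the list counted from the strongest peak, so that a low rank is a strong peak. With 1 list per strain and diet there is no replicate, and no difference below was tested. Wilson intervals on shares (95%) cover counting error of regions only, and regions are not replicates. The depth of the libraries is unknown. Between 14.5% and 30.4% of the peaks numbered in the peak names stood in a list, and the weakest peak listed had a signal of 0.0850, 0.0965 and 0.0849 in C57BL/6J on HF, Reversal and Control, and of 0.107, 0.125 and 0.119 in A/J. Absence from a list thus means that a region did not reach it. The submitters' processing notes name the assembly mm9. It derives from C57BL/6J, mapping of A/J reads was not examined, and unequal mapping and unequal openness cannot be told apart. Positions below are in mm9 and 1-based, no sequence or gene annotation of that assembly was used here, and the regions are described by position.

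The C57BL/6J-only regions were fewer than their mirror class. C57BL/6J had 25381 regions with a peak on all 3 diets, of which 11.9% (11.5 to 12.3) lacked any A/J peak. A/J had 28711 such regions, of which 4242, or 14.8% (14.4 to 15.2), lacked any C57BL/6J peak. These A/J-only regions made up 8.59% of all merged regions. A peak in all 6 lists was found in 20381 regions, 41.3% of the total. The C57BL/6J-only regions covered 1233 kb and held 9.43%, 9.54% and 8.89% of the autosomal peaks of the C57BL/6J HF, Reversal and Control lists.

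**Figure D1:**
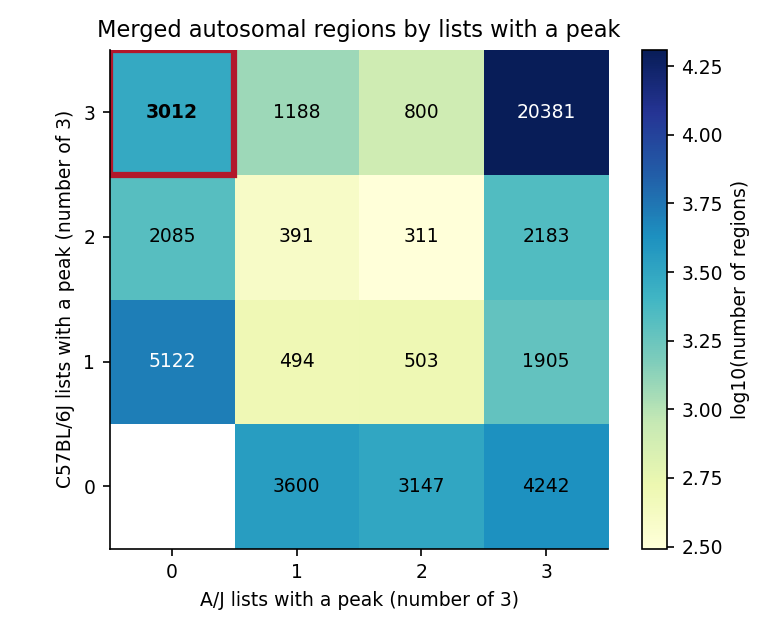
Number of merged autosomal regions by the number of C57BL/6J lists (vertical) and of A/J lists (horizontal) that hold a peak, coloured by log10 of the number. The outlined cell holds the 3012 C57BL/6J-only regions, between 20381 regions in all 6 lists and 2085 regions in 2 C57BL/6J lists and no A/J list.

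Regions just outside the rule show how near it lay to the end of the lists. In a set of 1188 regions all 3 C57BL/6J lists and 1 A/J list held a peak, and the A/J list was HF in 1029 of them (86.6%), Reversal in 41 (3.45%) and Control in 118 (9.93%). The A/J peak there was weak, with a median rank of 83.8% in the HF list, 94.1% in the Reversal list and 90.9% in the Control list. A further 2085 regions had 2 C57BL/6J lists and no A/J list. The missing list was HF in 684 of these, Reversal in 1060 and Control in 341, and the peaks that were present had median ranks of 83.8%, 82.9% and 85.1%. The lists that most often kept a region out were thus the A/J HF list and the C57BL/6J Reversal list.

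Among the best ranked regions that missed the rule was one on chromosome 14 from 102959905 to 102960340. It had signals of 0.971, 0.919 and 1.19 in C57BL/6J on HF, Reversal and Control, and its lone A/J peak on HF had a signal of 0.247 at a rank of 51.7%. The next ones, on chromosome 3 from 17285022 to 17285452 and on chromosome 7 from 60025672 to 60026100, likewise had an A/J peak on HF alone, at ranks of 53.7% and 56.0%. At the other end, the C57BL/6J-only region with the weakest mean rank lay on chromosome 9 from 74748062 to 74748425, with signals of 0.0902, 0.0980 and 0.0850 on HF, Reversal and Control, each close to the lowest value of its list.

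C57BL/6J-only regions were of middling to low signal, and in the C57BL/6J lists their ranks were stronger on Control than on HF or Reversal. The median rank was 71.4% on HF, 76.3% on Reversal and 58.3% on Control. The interquartile range lay between 58.7% and 83.2% on HF, between 63.3% and 87.0% on Reversal and between 46.7% and 70.7% on Control. The strongest 20% of a list held 3 of them on HF, 2 on Reversal and 22 on Control. The stronger part of the list, up to a rank of 50%, held 377, 264 and 961 of them. The last 10% of a list held 403 on HF, 556 on Reversal and 142 on Control.

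Region by region, the rank percent on HF minus that on Control was 12.2 percentage points in the median, a positive value being a weaker rank on HF (interquartile range 3.59 to 20.3), and HF was the weaker in 2459 of 3012 regions (81.6%, 80.2 to 83.0). The median of Reversal minus Control was 17.3 percentage points (7.82 to 25.01), and 2544 regions (84.5%, 83.1 to 85.7) were weaker on Reversal. The median of Reversal minus HF was 4.01 percentage points. The strongest rank fell to HF in 395 regions (13.1%), to Reversal in 295 (9.79%) and to Control in 2322 (77.1%, 75.6 to 78.6). Among regions with a peak in all 6 lists these shares were 24.9%, 31.8% and 43.3%, so that Control was the most frequent there too. The order Control, HF, Reversal from strong to weak was seen in 1572 regions, and Control, Reversal, HF in 750.

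The lean was much smaller in regions with a peak in all 6 lists. Their median rank in C57BL/6J was 32.5% on HF, 32.6% on Reversal and 31.4% on Control, with median differences of 0.397 and 0.400 percentage points for HF and Reversal minus Control, and 54.2% and 53.6% of them were weaker on HF and on Reversal than on Control. The gap was also present at like signal. Among C57BL/6J-only regions with a mean rank of 60 to 80%, HF minus Control was 14.5 and Reversal minus Control 19.4 percentage points in the median. For regions of the same rank in all 6 lists the values were -0.407 and -2.47. Regions in 3 C57BL/6J lists and 1 A/J list were close to the C57BL/6J-only regions. Their median differences were 12.4 and 16.3 percentage points over all ranks, and 14.5 and 18.1 at mean ranks of 60 to 80%. With 2 A/J lists the differences over all ranks were smaller, at 8.01 and 10.2 percentage points. For A/J-only regions, ranked in the A/J lists, HF minus Control was 10.1 and Reversal minus Control 0.505 percentage points in the median. Each diet is 1 list, so that diet cannot be told apart from the libraries behind the list. The C57BL/6J Control list is also the one with the most numbered peaks, 244259 against 163827 on HF and 176298 on Reversal, and the part of this in the rank difference was not tested.

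**Figure D2:**
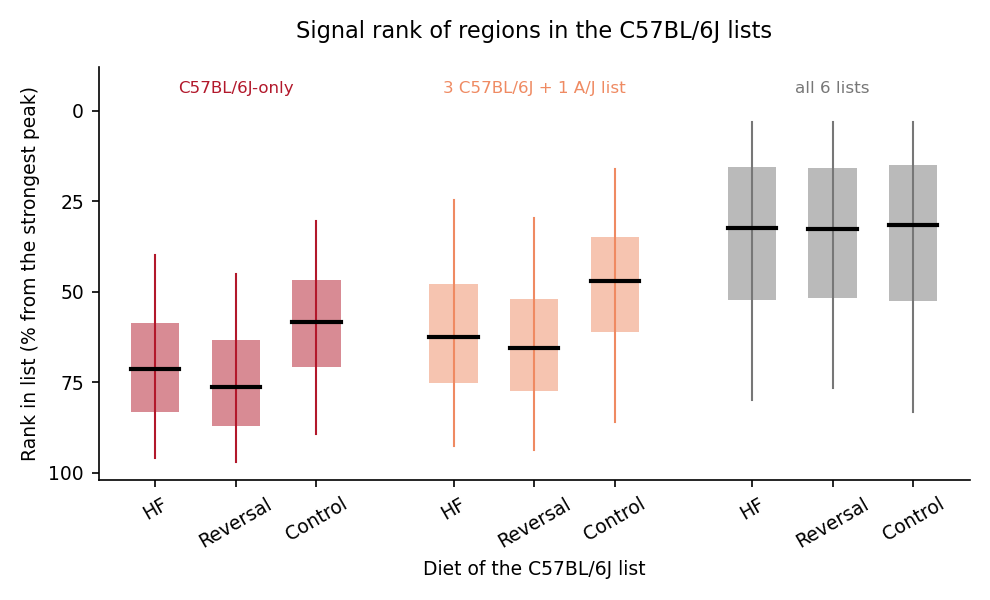
Signal rank of regions in the 3 C57BL/6J lists, in percent of the list from the strongest peak (0 at the top). Black lines are medians, boxes the interquartile range and thin lines the 5th to 95th percentile. C57BL/6J-only regions have medians of 71.4%, 76.3% and 58.3% on HF, Reversal and Control, while regions in all 6 lists stay between 31.4% and 32.6%.

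The order of the C57BL/6J-only regions was partly shared between diets. Spearman's rho of the ranks was 0.644 for HF and Control, 0.588 for Reversal and Control and 0.710 for Reversal and HF, over 3012 regions that were all required to be in the 3 lists. Over the 20381 regions in all 6 lists the values were 0.951, 0.936 and 0.972. Those regions span a wider range of ranks, and the part of this in rho was not tested. Regions in 3 C57BL/6J lists and 1 A/J list had 0.803, 0.779 and 0.811, and those with 2 A/J lists 0.756, 0.678 and 0.747. For A/J-only regions, ranked in the A/J lists, the values were 0.557, 0.731 and 0.579. The summits of the 3 peaks lay within 10 bp of each other in the median, within 50 bp in 95.1% of regions, and 2991 of the 3012 regions (99.3%) had 1 peak per list. Regions in all 6 lists had summits about as close, at 11 bp and 93.6%, as had regions in 3 C57BL/6J lists and 1 A/J list, at 8 bp and 95.6%. The shares with 1 peak per C57BL/6J list were 91.7% in all 6 lists and 99.2% in 3 C57BL/6J lists and 1 A/J list.

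The strongest C57BL/6J-only region lay on chromosome 6 from 103264468 to 103264845. Its signal was 0.770 on HF, 0.939 on Reversal and 1.15 on Control, at ranks of 10.8%, 10.4% and 1.40%. The nearest A/J peak was 334 kb away, and 3 other merged regions lay within 500 kb on either side. The second lay on chromosome 11 from 101506777 to 101507892, at 0.745, 0.955 and 0.667 and ranks of 11.5%, 9.99% and 10.3%. It differed from the first in its surroundings, with an A/J peak at 3.24 kb and 103 other regions within 500 kb. The third, on chromosome 19 from 24220041 to 24220401, had signals of 0.457, 0.494 and 0.6345 on HF, Reversal and Control.

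The regions with the largest differences between HF and Control lay at both ends. The largest move toward HF was on chromosome 1 from 102076674 to 102077002, where the signal was 0.920 on HF, 0.166 on Reversal and 0.1495 on Control and ranks of 7.25%, 61.5% and 55.3%. It was high on HF alone. On chromosome 7 from 27663680 to 27664016 the signal was 0.163 on HF, 0.197 on Reversal and 0.0883 on Control, at ranks of 53.6%, 53.7% and 95.4%, so that both HF and Reversal stood above Control. On chromosome 8 from 91841979 to 91842359 the ranks were 56.3%, 72.8% and 98.6%. The largest move away from HF was on chromosome 4 from 120710087 to 120710385, at signals of 0.0883, 0.1885 and 0.211 and ranks of 95.9%, 55.6% and 40.5%. Next came chromosome 11 from 42729010 to 42729341, at ranks of 97.7%, 82.4% and 46.4%, and chromosome 8 from 101098327 to 101098639, at 95.1%, 79.9% and 44.3%. In each of these the rank on Reversal lay between HF and Control, nearer to Control in the first and nearer to HF in the others. These regions were picked for their difference, which is given with no test.

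C57BL/6J-only regions were mostly narrow, with a small wide tail. The merged regions had a median width of 343 bp, with an interquartile range between 308 and 415 bp, and 84.0% were under 500 bp. Regions in all 6 lists had a median of 803 bp (521 to 1162), and 22.9% of them were under 500 bp. Several classes more like the C57BL/6J-only ones were about as narrow. Under 500 bp were 76.8% of A/J-only regions and 81.1% of regions in 3 C57BL/6J lists and 1 A/J list. For regions in 2 and in 1 C57BL/6J list without an A/J list it was 87.4% and 91.7%, against 56.9% of all regions. Regions in 3 C57BL/6J lists and 2 A/J lists were wider, with 57.6% under 500 bp. Merging of up to 6 lists widens regions, but the single peaks differed too. The strongest peak of a C57BL/6J-only region had a median width of 310.5 bp on HF, 317 bp on Reversal and 330 bp on Control, against 583, 620 and 601 bp for regions in all 6 lists.

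Width goes with signal, and it was therefore compared at like rank. At mean ranks of 20 to 40% the median was 397.5 bp in 164 C57BL/6J-only regions, against 477 bp in 73 A/J-only regions and 827 bp in 5676 regions of all 6 lists. At 60 to 80% it was 330 bp in 1477 C57BL/6J-only regions, against 358 and 490 bp. At 80 to 100% the C57BL/6J-only and A/J-only medians were 323 and 324 bp, and regions of all 6 lists had 439.5 bp. Regions in 3 C57BL/6J lists and 1 A/J list had medians of 394, 338 and 375 bp in these bins. With 2 A/J lists the medians were 395, 475 and 466 bp. From 20% on, the median of the C57BL/6J-only regions was smaller in each weaker bin. In each of these 4 bins of 20% it lay below that of regions in all 6 lists. These are widths of merged regions, so that the number of lists merged was not separated from this gap.

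**Figure D3:**
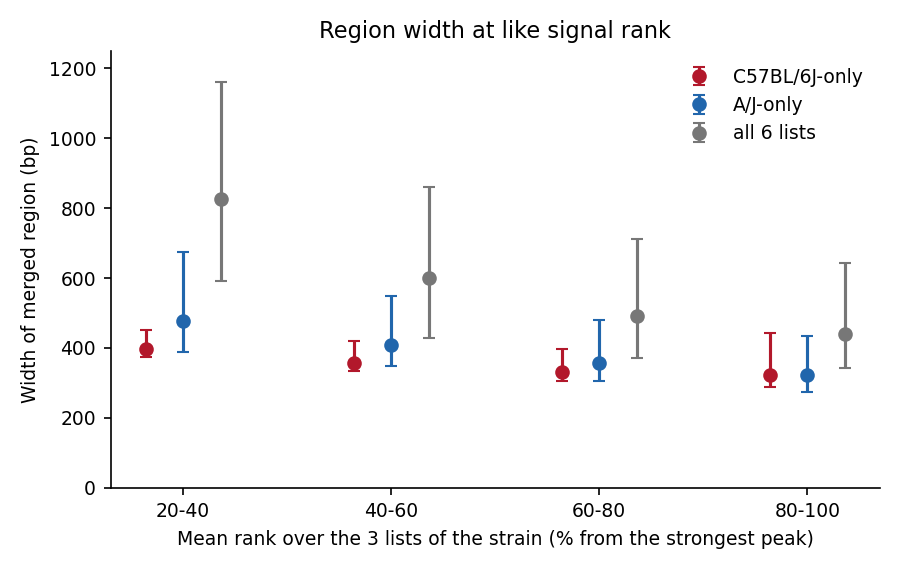
Width of merged regions in bins of 20% of their mean rank over the 3 lists of the strain, with medians as points and the interquartile range as bars. C57BL/6J-only regions run from 397.5 bp at 20 to 40% to 323 bp at 80 to 100% and are narrower than regions in all 6 lists in every bin shown. The first bin, with 3 C57BL/6J-only regions, is not drawn.

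A minority was wide. Of the C57BL/6J-only regions 476 (15.8%) were over 500 bp and 2.16% were over 1000 bp. The widest lay on chromosome 12 from 8636884 to 8642479, with 5596 bp, signals of 0.320, 0.351 and 0.440 on HF, Reversal and Control, and an A/J peak 2.735 kb away. The second was on chromosome 1 from 7379172 to 7384309, with 5138 bp and signals of 0.238, 0.293 and 0.451. The third was on chromosome 10 from 7231128 to 7235255, with 4128 bp and signals of 0.449, 0.298 and 0.377. All 3 ranked better than the typical member, with mean ranks of 28.4%, 32.8% and 28.6%. Wide and narrow members differed in their surroundings: those over 500 bp had a median of 33 other merged regions within 500 kb and an A/J peak at 9.56 kb, whereas those up to 500 bp had 15 other regions and an A/J peak at 34.3 kb.

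Most C57BL/6J-only regions stood over 10 kb from any A/J peak, while 991 (32.9%, 31.2 to 34.6) had one within 10 kb. The median distance was 27.9 kb (interquartile range 5.63 to 147 kb), and 258 of them (8.57%, 7.62 to 9.62) lay within 1 kb of an A/J peak and 29 within 100 bp. Other regions without an A/J peak stood about as far from one. The median was 20.2 kb for regions in 2 C57BL/6J lists and 28.3 kb for those in 1, with 39.0% and 34.0% within 10 kb. A/J-only regions lay closer to C57BL/6J peaks, at a median of 5.94 kb (1.57 to 17.8 kb), with 19.02% (17.9 to 20.2) within 1 kb. An A/J peak was over 100 kb away for 931 C57BL/6J-only regions (30.9%). The nearest member to an A/J peak lay 7 bp from it, on chromosome 13 from 12794277 to 12794991, and the next 2 lay 12 bp away, on chromosome 4 from 59343806 to 59344157 and on chromosome 15 from 103080194 to 103080652. The farthest were on chromosome 7 from 8991046 to 8991346 at 1737 kb, on chromosome 18 from 28484668 to 28484924 at 1721 kb and on chromosome 13 from 26910106 to 26910384 at 1701 kb. With the C57BL/6J lists limited to their strongest 20000 autosomal peaks, 536 regions met the rule, at a median distance of 54.65 kb.

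**Figure D4:**
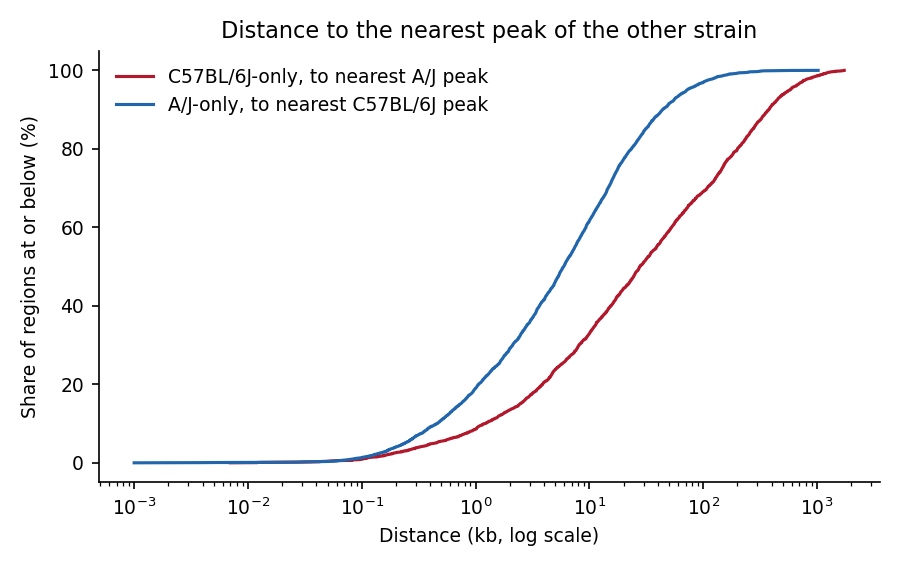
Cumulative share of regions by distance to the nearest peak of the other strain (log scale), for 3012 C57BL/6J-only regions and 4242 A/J-only regions. The median is 27.9 kb for C57BL/6J-only regions and 5.94 kb for A/J-only regions.

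The distance went together with where the regions lay. C57BL/6J-only regions had a median of 18 other merged regions within 500 kb on either side (interquartile range 7 to 41), A/J-only regions 41 (25 to 64) and regions in all 6 lists 43 (24 to 70). Regions in 3 C57BL/6J lists and 1 A/J list lay as sparsely, with a median of 17. The nearest merged region of any kind was 14.4 kb away in the median, against 18.8 kb for regions in 3 C57BL/6J lists and 1 A/J list, 3.19 kb for A/J-only regions and 4.46 kb for regions in all 6 lists. With all regions divided into 4 classes of like size by this density, C57BL/6J-only regions were 12.4% (11.9 to 13.0) of the sparsest class (up to 19 others), 4.86% and 3.76% of the middle classes and 3.11% (2.81 to 3.43) of the densest (64 or more others). A/J-only regions were 5.43% (5.05 to 5.84) of the sparsest class and 9.04% (8.54 to 9.57) of the densest. The sparsest class held 1582 of the 3012 C57BL/6J-only regions.

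The gap between diets, but not the order of their medians, varied with the distance to an A/J peak. In the 931 regions with no A/J peak within 100 kb, the median rank was 70.0% on HF, 75.6% on Reversal and 51.6% on Control, and 94.2% of them were weaker on HF than on Control. In the 1090 regions with an A/J peak at 10 to 100 kb, the medians were 72.6%, 76.9% and 58.9%, with 84.6% weaker on HF. In the 991 regions with an A/J peak within 10 kb, they were 71.5%, 76.1% and 66.0%, with 66.6% weaker on HF. The ranks on HF and Reversal were close between these groups, and Control had its strongest ranks in the regions farthest from an A/J peak. Median widths were 332, 341 and 367 bp from the farthest to the nearest group.

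**Figure D5:**
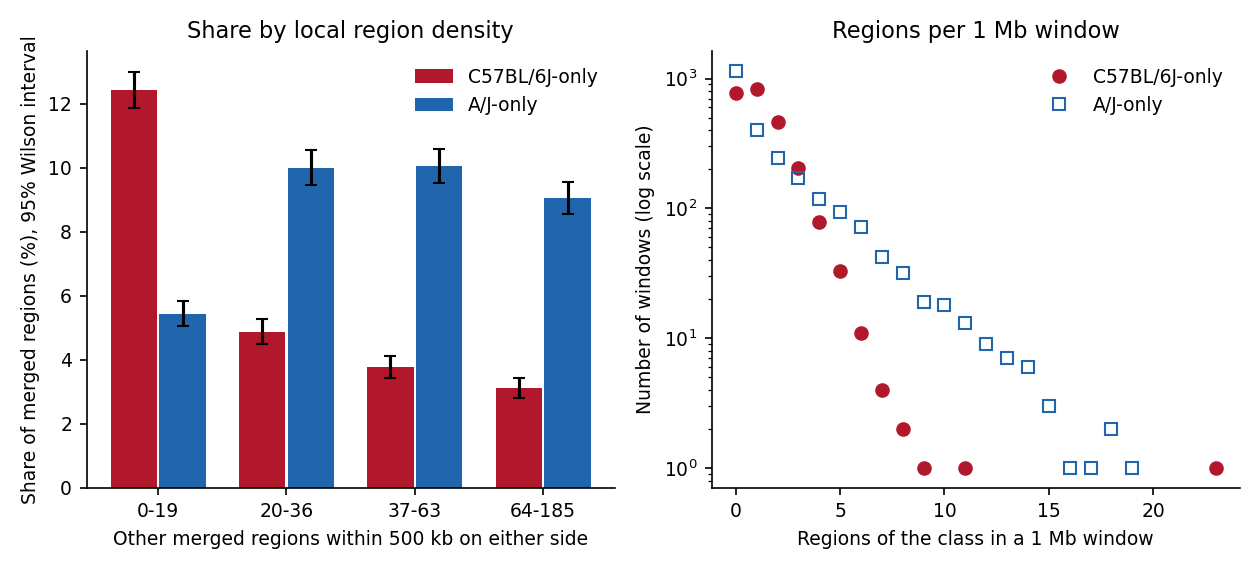
Left, C57BL/6J-only and A/J-only regions as a share of all merged regions, in 4 classes by the number of other merged regions within 500 kb on either side, with 95% Wilson intervals. Right, number of 1 Mb windows (log scale) by the regions of each class they hold. C57BL/6J-only regions are 12.4% of the sparsest and 3.11% of the densest class, and 1 window holds 23 of them.

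C57BL/6J-only regions followed each other along the chromosomes more often than their share. The next merged region was again C57BL/6J-only in 343 of 3011 cases (11.4%, 10.3 to 12.6), where such regions are 6.10% of all. It was A/J-only in 142 cases (4.72%, 4.015 to 5.53), where A/J-only regions are 8.59% of all. The share varied with density. In the sparsest class a C57BL/6J-only region was followed by another in 16.6% of cases (14.8 to 18.5), and any other region was followed by one in 11.8% (11.2 to 12.4). In the next classes the shares were 6.37% (4.66 to 8.65) and 4.80% (4.42 to 5.21), then 4.85% (3.25 to 7.18) and 3.78% (3.45 to 4.13), with intervals that overlap. In the densest class they were 5.60% (3.69 to 8.41) and 3.00% (2.71 to 3.33). A/J-only regions followed their own kind in 13.1% of cases (12.2 to 14.2). From the sparsest to the densest class this share was 10.3%, 13.2%, 14.9% and 12.8%. Any other region was followed by an A/J-only region in 5.19%, 9.67%, 9.46% and 8.63%, with intervals that did not overlap in any class. With both HF lists left out the rule found 4854 regions, 10.1% of all, and 19.7% of them were followed by their own kind. With both Reversal lists left out these shares were 8.66% and 17.2%. With the strongest 20000 peaks of each C57BL/6J list they were 1.30% and 8.21%.

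Nearly all of this was in short runs. Of the C57BL/6J-only regions 2372 stood singly between regions of other kinds, 259 runs held 2 of them and 38 runs held 3 or more. The longest runs had 5 members. One lay on chromosome 9 from 10038147 to 10966950 over 929 kb, with widths of 308 to 513 bp and mean ranks of 44.9% to 68.2%. The other lay on chromosome 12 from 64572531 to 65902275 over 1330 kb, with widths of 321 to 489 bp and mean ranks of 43.0% to 62.0%. A run of 4 was found on chromosome 18 from 88009854 to 88319923 over 310 kb, with weaker mean ranks of 70.2% to 80.1%. The median distance to the nearest other C57BL/6J-only region was 234.5 kb, and 203 of them (6.74%) had one within 10 kb. Among A/J-only regions the median was 49.15 kb.

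By 1 Mb windows the regions were spread thinly with 1 exception. Of 2406 windows with any merged region 770 held no C57BL/6J-only region, 835 held 1 and 53 held 5 or more. The exception was chromosome 1 from 85000001 to 86000000, where 23 of 68 merged regions (33.8%) were C57BL/6J-only. They lay between 85080882 and 85334130, a stretch of 253 kb, at a median spacing of 4.04 kb and a median of 4.95 kb from an A/J peak. In the same window 52 of the 68 regions had no A/J peak, 2 had a peak in all 6 lists and 0 were A/J-only. The 23 regions were wider than most, with a median of 537 bp and a range of 326 to 2454 bp, and their median ranks were 69.2% on HF, 72.9% on Reversal and 53.0% on Control.

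The next windows held far fewer. Chromosome 8 from 19000001 to 20000000 had 11 among 86 regions, with a median width of 813 bp, and 4 regions there were A/J-only. Chromosome 4 from 129000001 to 130000000 had 9 among 80, of the usual narrow kind with a median of 322 bp. Chromosome 4 from 42000001 to 43000000 had 8 among 29 (27.6%), of 531 bp in the median, and 18 of the 29 had no A/J peak. Chromosome 1 from 87000001 to 88000000 had 8 among 41, of 520 bp in the median. In 4 of these 5 windows the C57BL/6J-only regions were wider in the median than the 343 bp of the whole class. Without the densest window 2989 regions remained, followed by their own kind in 11.3% of cases.

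Shares were also taken by chromosome. A chromosome holds far more regions than a window, so that the spread of chromosomes was not compared with that of windows. The share of C57BL/6J-only regions was highest on chromosome 1, with 272 of 3090 merged regions (8.80%, 7.85 to 9.85), and lowest on chromosome 11, with 165 of 3927 (4.202%, 3.62 to 4.875). Chromosomes 14 and 13 followed the first with 8.02% and 7.98%, and chromosomes 17 and 7 stood next to the last with 4.71% and 4.83%. A/J-only regions had other extremes, with 10.7% on chromosome 6 and 7.16% on chromosome 3.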

How the data were processed

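FAIRE-seq peaks of mouse liver were taken from 6 deposited lists, 1 per strain and diet, whose strain and diet are known from the list names. Pooling of libraries and the peak caller are not given in the sources used here. Per the submitters' processing notes, the assembly was mm9 and Bowtie2, TopHat and DESeq2 were among the tools, without versions or roles. The deposited signal per peak has no stated scale; other columns hold start, end and summit. The deposited expression tables carry no mm9 positions and were not used here. Peaks of chromosomes 1 to 19 were merged at 1 shared bp. For each region and list the strongest peak was ranked within the whole list, with ties at their mean rank. Density counted regions with a centre within 500 kb on either side, and windows took regions by their centre. Shares have 95% Wilson intervals. Merging, distances and runs were tested on simulated data. Python 3.11.15, numpy 2.4.6, pandas 2.3.3 and SciPy 1.17.1 were used. Named regions followed a rule: the 3 extremes of rank, HF minus Control rank, width and distance, the 3 longest runs, the 5 fullest windows and the chromosomes at both ends; the region of weakest mean rank and the neighbouring chromosomes in that order were added after their values were seen. The members, classes and measures were chosen with earlier results of these data known.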

Additional observations from a re-analysis of the deposited data

Results flagged for a closer look

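Chromosomes X and Y lie outside the rule, and the same merging was applied to them. On chromosome X, 315 of 1521 merged regions, 20.7% (18.7 to 22.8), had a peak in all C57BL/6J lists and no A/J list, against 34 regions (2.24%) of the A/J-only kind, and this share lies above the 6.10% of the autosomes. On chromosome Y it was 37 of 149, 24.8% (18.6 to 32.3), with 0 of the A/J-only kind. Peaks on chromosome X were 3.40%, 2.92% and 3.85% of the C57BL/6J lists on HF, Reversal and Control, and 1.98%, 1.51% and 1.51% of the A/J lists. What lies behind this was not tested.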

How the results depend on the processing

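There were 11 alternatives, of which leaving out the densest window was chosen after the data were seen. The windows of 500 kb and 5 Mb bear on the densest window alone, and each value was recomputed under the alternatives that could give it. Of 61 values 38 stayed within 1.5 times (counts) or within the 95% interval of the share or median, 23 moved and 0 changed sign. With the strongest 20000 peaks per C57BL/6J list the values were 536 regions, 378 bp, 8.21% followed by their own kind, 54.65 kb to an A/J peak, rank differences of 10.3 (HF minus Control) and 15.4 (Reversal minus Control) percentage points, and 5 regions in the densest window. With the shortest list's number of peaks in every list the share followed was 12.7%, where C57BL/6J-only regions were 7.01% of all. Without both Control lists the values were 330 bp, 16.1% (where such regions were 7.99% of all) and 22.6 kb. Without both HF lists they were 4854 regions, 340 bp, 19.7%, 34.4 kb, a Reversal minus Control difference of 16.7 percentage points and 37 regions in the densest window. Without both Reversal lists they were 329 bp and 17.2%. With members within 1 kb of an A/J peak left out they were 37.1 kb and rank differences of 12.8 and 17.9 percentage points. With the densest window left out the next held 11 regions. Neither way of merging moved a value past these limits. A rank difference needs both of its lists and was not computed where 1 was left out. Leaving out single libraries was not possible, since the lists hold none. No paired analysis was possible because each strain and diet has 1 list and no result comes from a test. Depth is unknown, and a weak region can be missing from a list for want of reads.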

Other observations

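Regions with a peak in C57BL/6J lists and no A/J list lay in sparse parts of the genome whether 1, 2 or 3 lists held them. The median number of other merged regions within 500 kb was 18 for 5122 regions in 1 C57BL/6J list, 22 for 2085 regions in 2 lists and 18 for the 3012 in all 3. For regions with 1, 2 or 3 A/J lists and no C57BL/6J list it was 40, 40 and 41. Of the 5122 regions in 1 C57BL/6J list, the list was HF in 815, Reversal in 553 and Control in 3754 (73.3%).

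Over the 1409 windows of 1 Mb with at least 10 merged regions, the share of C57BL/6J-only regions and the share of A/J-only regions had a Spearman's rho of -0.219. The share of C57BL/6J-only regions against the number of regions in the window had a rho of -0.2845, and that of A/J-only regions 0.229. All 3 share the same denominators and are given as a description.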
